A study of Homo sapiens with 18 samples.

Results

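Type I and type II interferons induce a shared set of antiviral genes and raise the display of peptides on major histocompatibility complex (MHC) class I, and 38 genes of that response were followed here across 2D and 3D culture. The genes were picked by symbol, the text before the first separator in the annotation column of the deposited raw count table, and 37 of the 38 were found among its 60662 genes. OAS1 is not analysed here, and MX2 was too low to test, which left 36 genes. They comprise 6 transcription factors, 14 cytosolic antiviral effectors and sensors, 6 membrane and organelle proteins, the class I heavy chains HLA-B, HLA-C, HLA-E and HLA-F with the light chain B2M, and 5 genes of peptide loading and the immunoproteasome.

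The cells were MCF10A, an immortalised, non-malignant human breast epithelial line, seeded sparsely on soft polyacrylamide gels coated with Matrigel, a basement membrane extract rich in laminin, in a medium with horse serum, EGF, insulin, cholera toxin and hydrocortisone. All 6 groups share that line, gel and medium: the 2D groups received fresh medium after attachment, the 3D groups medium with 2% Matrigel, and each culture was collected at timepoints 1, 2 and 3. The protocol names harvests at 3, 12 and 21 h, matched to the timepoints only by their order. No interferon or virus is named in the labels, 1 cell line is used, and the labels do not say whether the 3 replicates of a group are separate cultures, so p-values describe only the spread among these libraries, which may be technical.

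In the textbook pathway, sensors of foreign nucleic acid such as IFIH1 (MDA5) act through IRF3 and IRF7 to switch on interferon genes. Secreted interferon binds its receptors, and JAK kinases then activate STAT proteins, among them STAT2, which joins IRF9 in ISGF3, the complex that binds interferon-stimulated response elements (ISREs). Interferon gamma signalling acts through the gamma-activated site (GAS) and induces IRF1, which acts on many class I genes. On the display side, the immunoproteasome subunits PSMB8 and PSMB9 help cut proteins into peptides, the TAP1-TAP2 transporter carries these into the endoplasmic reticulum, and TAPBP (tapasin) tethers the transporter to the heavy chains as they pair with B2M. Epithelial cells keep a low constant level of many of these genes without added interferon.

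Levels are given as CPM, counts scaled to a common library size, after TMM normalisation, and are compared for one gene between libraries, never between genes. Summed gene counts ran from 49.8 to 93.9 M per library, 4.73 to 5.73 times the library totals in the deposited headers where these were given, so they were not read as depth. All 11 basal epithelial markers, KRT5, KRT14 and TP63 among them, had a median of at least 1 CPM, as did 5 of 6 general epithelial markers. Of 11 leukocyte markers 2 did (CD14 and CD74), while PTPRC, CD3E, LYZ and 5 others had medians under 0.1 CPM. Their summed level was 12.8 to 16.2, 12.2 to 20.5 and 12.6 to 21.2 CPM in 2D at timepoints 1 to 3, against 11.2 to 15.7, 8.05 to 9.22 and 8.25 to 9.94 CPM in 3D. It was therefore lower in every 3D library than in every 2D library at timepoints 2 and 3, and its part in the results was not tested. A median of at least 1 CPM was reached by 2 of 7 fibroblast markers, 2 of 5 endothelial markers and 1 of 4 plasmacytoid dendritic cell markers. The summed endothelial markers at timepoint 2 ranged from 3.83 to 4.54 CPM in 2D libraries, against 2.23 to 2.71 CPM in 3D libraries. The summed general epithelial markers in 2D ranged from 3323 to 4803 CPM at timepoint 1, against 2132 to 2806 CPM at timepoint 3. In 3D these ranges were 3728 to 4638 CPM, then 2439 to 2484 CPM. The endothelial sums did not overlap between cultures at timepoint 2, nor the epithelial sums between timepoints 1 and 3 within a culture, and their part in the results was not tested. In bulk RNA a smaller number of cells of one kind and less RNA per cell cannot be told apart.

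The library labelled 2D timepoint 3 replicate 1 stands apart and bears on every result of timepoint 3. The tests used 17 of the 18 libraries, since the labels list this one with the raw table alone, and the 2D group of timepoint 3 therefore had n = 2. On a scale over the 278 genes called at timepoint 3, with 0 the mean of the other 2D libraries and 1 that of the 3D libraries, it lay at 0.946. The other 2D libraries lay at -0.0937 and 0.0937, and the 3D libraries between 0.907 and 1.10. The scale was built from those libraries and the genes called between them, so their own places largely follow from the measure. At timepoint 1 the libraries lay between 0.262 and 0.379 in 2D and between 0.238 and 0.386 in 3D. At timepoint 2 they lay between 0.174 and 0.389 in 2D and between 0.758 and 1.02 in 3D. For the 36 tested members, 18 values of the library labelled replicate 1 fell within the range of the 3D libraries of timepoint 3. In the same library 3 values fell within the range of the other 2D libraries, and 29 lay nearer the 3D mean. The 3D range spans 3 libraries and the 2D range 2, so a value falls within the 3D range more readily. The same count over all genes was not made. Whether the library or its label departs from the rest was not tested, and the culture results of members at timepoint 3 are given with and without it.

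Promoter sequences show which motifs stand before the members, and those printed belong to genes that the results turn on. They come from RefSeq (GRCh38.p14), read 5′ to 3′ along the gene's strand before the annotated start, with motif matches in capitals. IRF1 (chr5:132490774-132491023, minus strand) and IRF9 (chr14:24161015-24161264, plus strand) each hold a match to the GAS, searched as TTCNNNGAA. The RefSeq start of IRF9 lies upstream of the start in the count table. HLA-B (chr6:31357180-31357429, minus strand) holds a match to the kB motif bound by NF-kB, searched as GGGNNTTCC.
IRF1: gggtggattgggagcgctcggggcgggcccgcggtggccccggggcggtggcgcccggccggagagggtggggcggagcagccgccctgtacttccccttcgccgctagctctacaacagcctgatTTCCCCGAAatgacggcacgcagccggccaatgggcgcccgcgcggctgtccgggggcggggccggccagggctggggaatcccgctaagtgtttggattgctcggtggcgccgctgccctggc
IRF9: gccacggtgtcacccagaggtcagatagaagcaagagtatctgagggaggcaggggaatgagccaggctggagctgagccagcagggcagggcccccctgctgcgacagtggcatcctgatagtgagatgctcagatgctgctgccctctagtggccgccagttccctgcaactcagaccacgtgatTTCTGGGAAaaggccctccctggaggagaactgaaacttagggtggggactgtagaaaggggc
HLA-B: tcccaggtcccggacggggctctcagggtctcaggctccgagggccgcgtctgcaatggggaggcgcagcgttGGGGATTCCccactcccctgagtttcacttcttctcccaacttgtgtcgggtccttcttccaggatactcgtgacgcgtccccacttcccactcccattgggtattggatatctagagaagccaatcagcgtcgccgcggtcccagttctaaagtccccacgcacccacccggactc
The next set shows the IRF element of the ISRE, searched as GAAANNGAA on both strands, in IFIT3, whose 2 RefSeq starts both carry it (chr10:89327827-89327966, plus strand and chr10:89332359-89332498, plus strand), and in TAP1 (chr6:32853775-32853874, minus strand). These genes changed with time, and their promoters were chosen for print after their values were seen.
IFIT3, first start: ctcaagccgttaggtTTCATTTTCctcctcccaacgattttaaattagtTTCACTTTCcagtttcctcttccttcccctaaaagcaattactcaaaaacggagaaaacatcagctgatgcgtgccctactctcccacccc
IFIT3, second start: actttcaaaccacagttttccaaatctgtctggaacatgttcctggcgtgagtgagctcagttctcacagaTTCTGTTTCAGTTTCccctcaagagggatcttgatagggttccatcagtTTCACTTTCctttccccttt
TAP1: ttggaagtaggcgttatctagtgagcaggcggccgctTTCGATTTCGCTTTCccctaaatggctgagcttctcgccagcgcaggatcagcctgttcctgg
In TAP1 and at the second start of IFIT3 a pair of elements overlap by 3 bases.

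RefSeq promoters were given for 28 of the 37 members, with 35 starts in all, and the 250 bases before each start were searched on both strands. The IRF element was found at 23 of these 35 starts (65.7%, 20 of 28 genes), against 6.87% of 34943 promoters of all genes. The GAS was found at 10 starts (28.6%, 9 genes), against 6.56% of all promoters, and the kB motif at 5 starts (14.3%, 5 genes), against 5.77%. The GAS and the IRF element share letters and can overlap, as they do in IFI27. Nearby starts of a gene can hold the same site, which is then counted at each, as in IFI27 and IFI44. The members were picked as interferon-response and class I genes. A high share of the IRF element follows from that choice and does not bear on these cultures. The IRF elements sit in the antiviral genes, including ISG15, IFI6, IFI44, IFI44L, IFIT1, IFIT5, OAS3 and IFIH1, and in TAP1, TAP2, TAPBP and B2M. IRF1, IRF9 and HLA-B showed no exact match to GAAANNGAA in this window. The search took exact matches alone, so a variant of the element would be missed, and these genes may still hold one. IRF2, IRF3, IRF7, IFIT2, OAS2, OASL, MX2, IFITM2 and HLA-E had no entry. A match is a run of letters and not a tested binding site.

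At timepoint 1 no member was called between 3D and 2D. With edgeR's quasi-likelihood test and Benjamini-Hochberg adjustment, 0 of the 36 members passed an adjusted p of 0.05, and 0% of the 18592 genes tested did. Members with an unadjusted p under 0.05 also numbered 0, and DESeq2 and limma-voom each called 0. Log2 fold changes, 3D against 2D throughout, ran from -0.48 to 0.55 with a median of -0.07, beside a median of 0.00 over all genes. With the replicate number as a block, which pairs libraries of one date, 0 members and 0% of genes were called. HLA-B stood at 49.9, 46.5 and 54.7 CPM in 2D and 50.8, 46.1 and 49.6 CPM in 3D. IRF1 stood at 20.8, 19.1 and 27.8 CPM in 2D and 21.9, 23.1 and 20.6 CPM in 3D. For both genes the ranges of the cultures overlapped.

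At timepoint 2 IFIT2 was lower in 3D, and the other members did not pass the test. IFIT2 is a cytosolic protein of the IFIT family that binds RNA and restrains translation of viral messages. It measured 2.13, 2.22 and 1.83 CPM in 2D and 0.583, 0.705 and 0.602 CPM in 3D, so each 3D library lay below each 2D library. By edgeR's quasi-likelihood test it was 3.28-fold lower in 3D (log2 fold change -1.71 ± 0.30 (SE), adjusted p = 0.0177). It was the 1 member called lower, against a background of 0.785% of genes, and 0 members were called higher. The median of the 36 was -0.18 and 24 lay below 0, while the median of all genes was -0.03. Leaving out 2D replicate 1, 2D replicate 2, 3D replicate 1 or 3D replicate 3 of this timepoint took the adjusted p of IFIT2 to between 0.0606 and 0.0766, with a log2 fold change of -1.71 in the full fit and -1.81 to -1.65 over all 6 omissions.

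STAT2, the partner of IRF9 in ISGF3, was called at timepoint 2 only with the replicate block. Its levels were 85.4, 97.8 and 87.3 CPM in 2D and 56.5, 76.5 and 56.3 CPM in 3D, with no overlap between the cultures. The blocked edgeR quasi-likelihood fit gave log2 fold change -0.53 ± 0.15 (SE), adjusted p = 0.0298, and the fit without the block gave an adjusted p of 0.168. IFIT2 and STAT2 were the 2 members called lower with the block, beside 6.86% of genes called lower, a share close to that of the members. The other antiviral genes with the same sign did not pass in either fit, among them the RNA sensor IFIH1 at 6.51, 4.91 and 7.0 CPM in 2D and 4.17, 3.33 and 3.76 CPM in 3D (log2 fold change -0.71, adjusted p = 0.170). Its 3D libraries nevertheless all lay below its 2D libraries. B2M, the light chain shared by all class I molecules, had the opposite sign, with 752, 556 and 626 CPM in 2D and 967, 595 and 859 CPM in 3D (log2 fold change 0.32, adjusted p = 0.440). The B2M ranges overlapped.

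At timepoint 3, over the 17 fitted libraries, 3 of the 6 transcription factors and 1 class I heavy chain were lower in 3D. The regulators were IRF1, IRF7 and IRF9, and the heavy chain was HLA-B. These 4 members lower in 3D compare with 1.26% of genes called lower, and 0 members were called higher. With all 18 libraries 0 members were called, as were 0% of 18111 genes, by edgeR's quasi-likelihood test in either direction. The values of each gene therefore follow with the library labelled 2D timepoint 3 replicate 1 beside the fitted ones.

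IRF1, the GAS-driven activator of class I genes (chr5:132481609-132490773, minus strand), measured 43.3 and 31.3 CPM in the fitted 2D libraries of timepoint 3, 16.6 CPM in the library labelled 2D timepoint 3 replicate 1, and 16.6, 19.8 and 17.7 CPM in 3D. By edgeR's quasi-likelihood test it was 2.07-fold lower in 3D over 17 libraries (log2 fold change -1.05 ± 0.21 (SE), adjusted p = 0.0218). With all 18 libraries its log2 fold change was -0.75 with an adjusted p of 0.403. The fitted 2D libraries lay above every 3D library, and the other 2D library lay at the lowest 3D value.

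IRF7, the regulator that amplifies interferon gene induction (chr11:612591-615970, minus strand), measured 21.0 and 11.0 CPM in the fitted 2D libraries, 6.16 CPM in the library labelled replicate 1, and 5.77, 7.08 and 5.17 CPM in 3D. It was 2.66-fold lower in 3D over 17 libraries (log2 fold change -1.41 ± 0.24 (SE), adjusted p = 0.00804). Both fitted 2D libraries lay above every 3D library, but they differed more from each other than the lower of them did from the 3D libraries. IRF9, the DNA-binding subunit of ISGF3 (chr14:24162996-24166224, plus strand), was tighter, at 16.6 and 14.4 CPM in the fitted 2D libraries, 6.48 CPM in the library labelled replicate 1, and 6.57, 8.38 and 6.91 CPM in 3D. Its change over 17 libraries was 2.13-fold (log2 fold change -1.09 ± 0.17 (SE), adjusted p = 0.00404). With all 18 libraries the log2 fold changes were -1.08 for IRF7 (adjusted p = 0.342) and -0.78 for IRF9 (adjusted p = 0.400).

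HLA-B (chr6:31353875-31357179, minus strand) presents peptides to CD8 T cells and is the class I heavy chain with the most alleles. It measured 86.2 and 82.2 CPM in the fitted 2D libraries of timepoint 3, 48.3 CPM in the library labelled replicate 1, and 44.0, 48.3 and 49.0 CPM in 3D. The fitted 2D libraries were the highest of all 18 for HLA-B, and the remaining 2D library lay within the 3D range. The difference over 17 libraries was 1.79-fold (log2 fold change -0.84 ± 0.14 (SE), adjusted p = 0.00710), and over 18 libraries the log2 fold change was -0.62 with an adjusted p of 0.353.

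**Figure D1:**
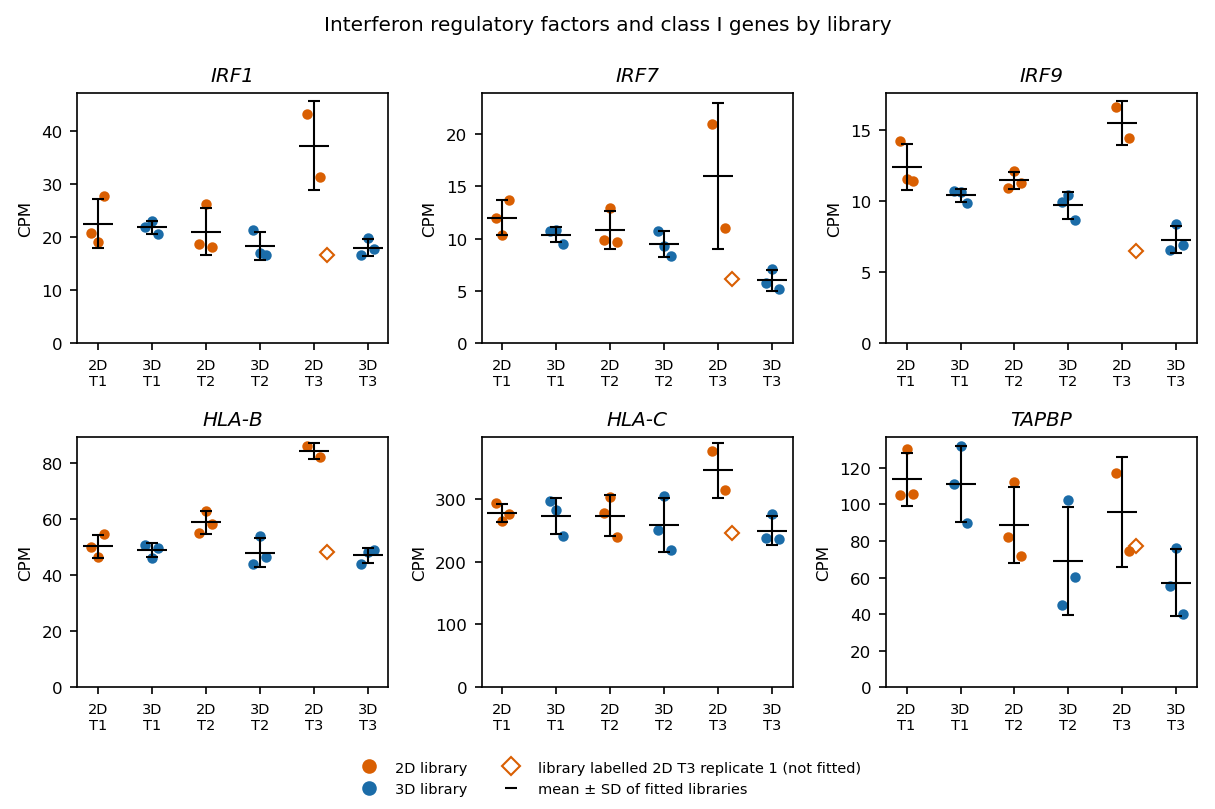
CPM (vertical axes, from 0) of IRF1, IRF7, IRF9, HLA-B, HLA-C and TAPBP in each library, by culture and timepoint (T1 to T3); filled points are fitted libraries, bars their mean ± SD, and the open diamond is the library labelled 2D timepoint 3 replicate 1. The diamond of IRF9, at 6.48 CPM, lies below both fitted 2D libraries of that timepoint, at 16.6 and 14.4 CPM, and that of TAPBP lies between its fitted 2D libraries.

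With the replicate block, 8 members were called lower at timepoint 3 over 17 libraries, beside 5.3% of genes. They were the 4 above and HLA-C, ISG20, TAP1 and TAPBP. HLA-C, a heavy chain that is also a ligand of natural killer cell receptors, stood at 376 and 314 CPM in the fitted 2D libraries, 246 CPM in the library labelled replicate 1 and 237, 276 and 235 CPM in 3D (blocked log2 fold change -0.48, adjusted p = 0.0271; 0.162 without the block). ISG20, an exonuclease that degrades viral RNA, stood at 8.96 and 8.14 CPM, 4.13 CPM and 3.26, 3.12 and 5.20 CPM in the same order (blocked log2 fold change -1.09, adjusted p = 0.0216; 0.149 without the block). For both genes the fitted 2D libraries lay above every 3D library.

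The peptide-loading genes followed the same sign. TAP1 measured 45.9 and 37.7 CPM in the fitted 2D libraries, 29.1 CPM in the library labelled replicate 1 and 26.1, 28.4 and 24.8 CPM in 3D (blocked log2 fold change -0.69, adjusted p = 0.0167; 0.104 without the block). TAPBP measured 117 and 74.4 CPM, 77.3 CPM and 55.3, 76.4 and 40.1 CPM in that order (blocked log2 fold change -0.68, adjusted p = 0.0315; 0.230 without the block). The TAP1 groups did not overlap, whereas the lower fitted 2D value of TAPBP lay below its highest 3D value. With the block over all 18 libraries, 3 members were called lower, IRF7, HLA-B and TAPBP, against 3.33% of 18111 genes. Their blocked log2 fold changes over 18 libraries were -1.03 (adjusted p = 0.0461), -0.60 (adjusted p = 0.0355) and -0.66 (adjusted p = 0.0299).

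**Figure D2:**
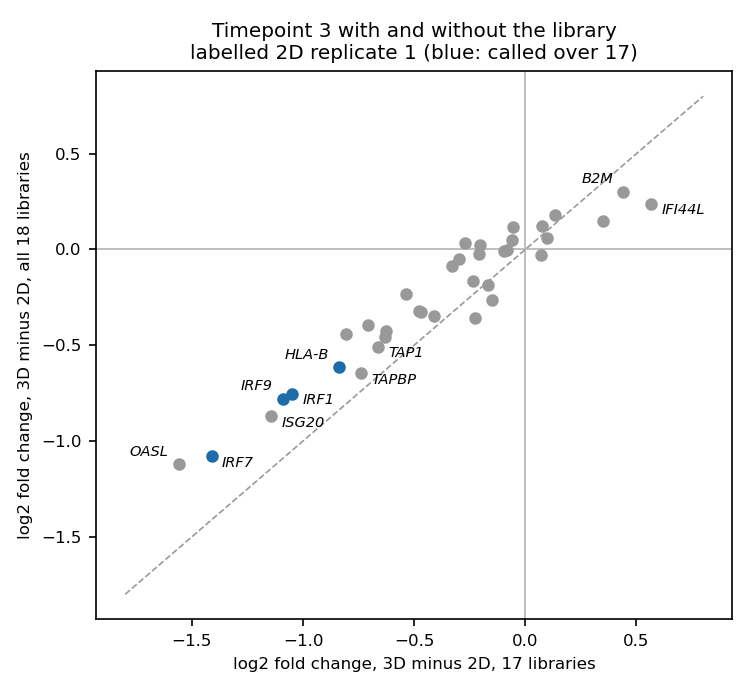
Log2 fold change of each tested member at timepoint 3, 3D against 2D, over 17 libraries (horizontal axis) and over all 18 (vertical axis), with the dashed line marking equal values and blue points the 4 members called over 17. IRF7 moves from -1.41 to -1.08 and HLA-B from -0.84 to -0.62, both nearer to 0 with the added library.

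Over all 36 members at timepoint 3, 29 had a log2 fold change below 0 over 17 libraries and 26 over 18. Their medians were -0.28 and -0.21, and those of all genes 0.02 and -0.01. By role, the median over 17 libraries was -0.73 for the transcription factors, -0.48 for the class I chains, -0.33 for peptide loading and the immunoproteasome, -0.28 for the membrane and organelle proteins and -0.18 for the cytosolic effectors. B2M again had the opposite sign to the heavy chains, at 531 and 661 CPM in the fitted 2D libraries, 779.9 CPM in the library labelled replicate 1 and 919.8, 691 and 818 CPM in 3D (log2 fold change 0.44, adjusted p = 0.355). When single libraries were left out of the 17, all 4 calls were lost without 2D timepoint 3 replicate 2, when the adjusted p was 0.408 for IRF1, 0.294 for IRF7, 0.0917 for IRF9 and 0.133 for HLA-B. Without 3D timepoint 3 replicate 1, IRF1 (0.113) and IRF7 (0.0505) were lost, and without 3D timepoint 3 replicate 3 IRF1 (0.0734). Those omissions of 3D libraries called 72 and 135 of all genes, against 278 in the full fit. The fit without 2D timepoint 3 replicate 2 called fewer of all genes as well. The authors' deposited table lists 34 of the members. It holds 4 of them with an adjusted p under 0.05 at timepoint 3, 1 at timepoint 2 and 0 at timepoint 1. Among all genes of that table, which are fewer than the 18592 tested here, 294, 489 and 0 passed at those timepoints. The 1 member at timepoint 2 therefore stands beside 489 genes called in all.

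The clearest change with time was a fall of IFIT3 in both cultures. IFIT3 works with IFIT1 in recognising viral RNA. In 2D it measured 7.36, 7.62 and 7.64 CPM at timepoint 1, 3.08, 3.05 and 2.76 CPM at timepoint 2 and 2.74 and 2.59 CPM in the fitted libraries of timepoint 3, with 2.88 CPM in the library labelled replicate 1. In 3D it measured 6.50, 5.00 and 6.54 CPM, 3.49, 1.88 and 2.11 CPM and 3.07, 2.37 and 3.10 CPM at timepoints 1 to 3. Every library of timepoint 1 lay above every later library of its culture. By edgeR's quasi-likelihood test the log2 fold changes against timepoint 1 were -1.35 (adjusted p = 0.00161) and -1.50 (adjusted p = 0.00284) in 2D. In 3D they were -1.26 (adjusted p = 0.00143) and -1.07 (adjusted p = 0.00444). Without 2D timepoint 3 replicate 3 the adjusted p in 2D at timepoint 3 was 0.0583, and with all 18 libraries it was 5.99e-04.

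IFIT2 fell in 3D, steeply at timepoint 2. It went from 3.08, 2.41 and 2.43 CPM at timepoint 1 to 0.583, 0.705 and 0.602 CPM and then 0.964, 2.00 and 0.839 CPM (log2 fold changes -2.07, adjusted p = 3.57e-04, and -1.06, adjusted p = 0.0251). In 2D it measured 2.77, 3.65 and 2.90 CPM, 2.13, 2.22 and 1.83 CPM and, in the fitted libraries of timepoint 3, 1.70 and 1.22 CPM (log2 fold changes -0.59, adjusted p = 0.277, and -1.09, adjusted p = 0.0707). In both cultures the libraries of timepoint 1 lay above all later ones, and over 17 libraries without the block the 3D changes passed and the 2D ones did not. The 2D value at timepoint 3 passed with the block (adjusted p = 0.0164). It also passed with all 18 libraries (log2 fold change -1.32, adjusted p = 0.0191), the added library holding 0.833 CPM. For the 3D change to timepoint 3, single omissions mattered. IFIT2 had an adjusted p of 0.0519 to 0.120 without 3D timepoint 1 replicate 1, 3D timepoint 1 replicate 2, 3D timepoint 3 replicate 1 or 3D timepoint 3 replicate 3.

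OASL, a relative of the oligoadenylate synthetases that enhances RNA sensing, fell in 3D from 4.12, 11.0 and 14.9 CPM at timepoint 1 to 1.02, 3.19 and 1.44 CPM and 0.908, 2.67 and 1.58 CPM (log2 fold changes -2.42, adjusted p = 0.0144, and -2.54, adjusted p = 0.0124). In 2D it measured 5.34, 8.47 and 14.8 CPM, 1.48, 5.27 and 2.05 CPM and, in the fitted libraries of timepoint 3, 6.35 and 3.78 CPM. With the block those 2D changes passed (adjusted p = 0.00291 and 0.0434, against 0.105 and 0.478 without it). Its level at timepoint 1 differed more between the replicate numbers than between the cultures. The sensor IFIH1 went in 3D from 7.27, 7.62 and 4.64 CPM to 4.17, 3.33 and 3.76 CPM and 2.85, 2.34 and 4.14 CPM, and the change at timepoint 3 passed (log2 fold change -1.07, adjusted p = 0.0210; 0.0633 at timepoint 2). With the block IFIH1 passed at timepoint 2 as well (adjusted p = 0.0466). For OASL in 3D at timepoint 2 and then timepoint 3, and for IFIH1 at timepoint 3, single omissions ended the call. OASL had an adjusted p of 0.0593 to 0.0650 without 3D timepoint 2 replicate 1 or 3D timepoint 2 replicate 3. OASL had an adjusted p of 0.0575 to 0.0590 without 3D timepoint 3 replicate 1 or 3D timepoint 3 replicate 3. IFIH1 had an adjusted p of 0.0692 to 0.0899 without 3D timepoint 1 replicate 1, 3D timepoint 1 replicate 2, 3D timepoint 3 replicate 1 or 3D timepoint 3 replicate 2.

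**Figure D3:**
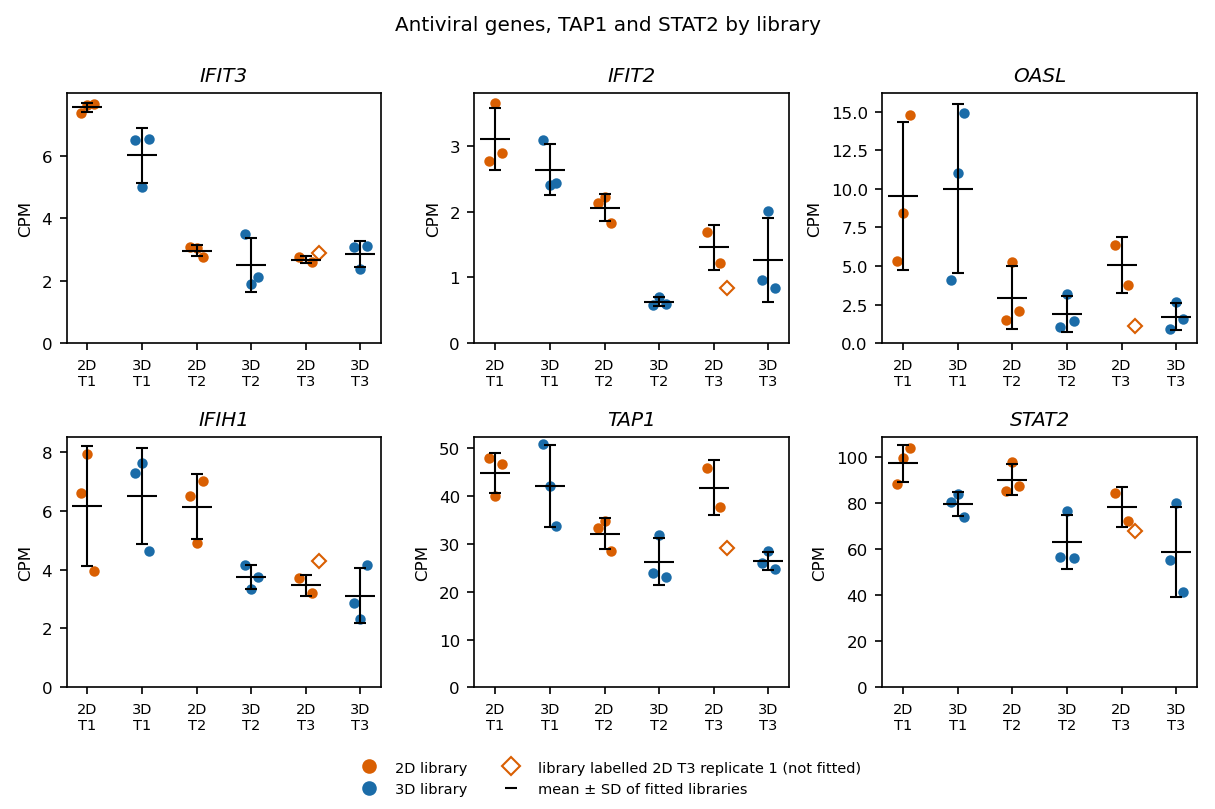
CPM (vertical axes, from 0) of IFIT3, IFIT2, OASL, IFIH1, TAP1 and STAT2 in each library, by culture and timepoint (T1 to T3); filled points are fitted libraries, bars their mean ± SD, and the open diamond is the library labelled 2D timepoint 3 replicate 1. IFIT3 lies at 5.00 CPM or more in each library of timepoint 1 and at 3.49 CPM or less in each later one.

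Of the 5 peptide-loading and immunoproteasome genes, TAP1 and TAPBP fell with time in 3D, while TAP2, PSMB8 and PSMB9 did not pass the test without the block. TAP1 went from 50.9, 42.1 and 33.7 CPM at timepoint 1 to 23.9, 32.0 and 23.0 CPM and 26.1, 28.4 and 24.8 CPM (log2 fold changes -0.68, adjusted p = 0.0175, and -0.68, adjusted p = 0.0213), with no overlap with timepoint 1. TAPBP went from 111, 132 and 90.1 CPM to 45.1, 102 and 60.3 CPM and 55.3, 76.4 and 40.1 CPM, and the change at timepoint 3 passed (log2 fold change -0.96, adjusted p = 0.0486). With the block that at timepoint 2 passed too (log2 fold change -0.73, adjusted p = 0.00452). IRF7 and IRF9 decreased from timepoint 1 to timepoint 3 in 3D and dropped by 0.79 and 0.52 on the log2 scale. Their adjusted p were 0.0313 and 0.0404 by edgeR's quasi-likelihood test over 17 libraries. Over all 18 they were 0.112 and 0.203, at the same log2 fold changes. At timepoint 1 the 3D libraries held 10.7, 10.9 and 9.54 CPM of IRF7 and 10.7, 10.7 and 9.87 CPM of IRF9, all above the 3D libraries of timepoint 3 given earlier. Between timepoints 1 and 3 in 3D the calls rested on several libraries. Without replicate 1 or 2 of timepoint 1 or replicate 1 or 3 of timepoint 3, the adjusted p was 0.0582 to 0.106 for TAP1, 0.101 to 0.197 for TAPBP, 0.0808 to 0.129 for IRF7 and 0.106 to 0.141 for IRF9. Between timepoints 1 and 2 the same held for TAP1. TAP1 had an adjusted p of 0.0525 to 0.0914 without 3D timepoint 1 replicate 1, 3D timepoint 1 replicate 2, 3D timepoint 2 replicate 1 or 3D timepoint 2 replicate 3.

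In the other direction, HLA-B measured 49.9, 46.5 and 54.7 CPM in 2D at timepoint 1, 55.0, 63.0 and 58.4 CPM at timepoint 2 and 86.2 and 82.2 CPM in the fitted libraries of timepoint 3, and it rose from timepoint 1 to timepoint 3 (log2 fold change 0.74, adjusted p = 0.00661). With the library labelled replicate 1, at 48.3 CPM, the log2 fold change was 0.52 with an adjusted p of 0.110. In 3D HLA-B stayed between 43.9 and 53.8 CPM throughout. Without 2D timepoint 3 replicate 2 or replicate 3 the adjusted p of the 2D rise was 0.0993 or 0.0567. IRF3, the constitutive regulator activated by nucleic acid sensing, rose in 3D from 162, 143 and 167 CPM to 261, 205 and 243 CPM at timepoint 2 (log2 fold change 0.59, adjusted p = 0.0149). IFI35, an interferon-induced leucine zipper protein, rose in 3D from 6.78, 6.29 and 8.39 CPM to 11.7, 11.9 and 10.1 CPM (log2 fold change 0.65, adjusted p = 0.0336). For both, each library of timepoint 2 lay above each of timepoint 1. IRF3 had an adjusted p of 0.0518 to 0.0712 without 3D timepoint 1 replicate 2, 3D timepoint 2 replicate 1 or 3D timepoint 2 replicate 3. IFI35 had an adjusted p of 0.0536 to 0.137 without 3D timepoint 1 replicate 1, 3D timepoint 1 replicate 2, 3D timepoint 2 replicate 1, 3D timepoint 2 replicate 2 or 3D timepoint 2 replicate 3. With all 18 libraries the adjusted p of IFI35 was 0.0533.

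The remaining levels of the called members show how the earlier 2D libraries compare. IRF1 stood at 18.8, 26.3 and 18.1 CPM in 2D and 21.4, 16.9 and 16.7 CPM in 3D at timepoint 2. IRF7 stood at 12.0, 10.4 and 13.7 CPM in 2D at timepoint 1, and at timepoint 2 at 9.86, 13.0 and 9.66 CPM in 2D and 10.8, 9.32 and 8.32 CPM in 3D. IRF9 stood at 14.3, 11.6 and 11.4 CPM in 2D at timepoint 1, and at timepoint 2 at 10.9, 12.1 and 11.3 CPM in 2D and 9.97, 10.5 and 8.67 CPM in 3D. At timepoints 1 and 2 the cultures overlapped for IRF1 and IRF7, whereas each 3D library of IRF9 lay below each 2D library without passing the test (adjusted p = 1.00 and 0.387). HLA-B in 3D at timepoint 2 held 43.9, 53.8 and 46.3 CPM, below each 2D library of that timepoint (log2 fold change -0.29, adjusted p = 0.215). IFIH1 in 2D held 6.61, 7.94 and 3.95 CPM at timepoint 1 and 3.71 and 3.21 CPM in the fitted libraries of timepoint 3, with 4.29 CPM in the library labelled replicate 1. TAP1 in 2D held 47.9, 40.1 and 46.7 CPM at timepoint 1 and 33.3, 34.7 and 28.5 CPM at timepoint 2, with no overlap, and the fitted libraries of timepoint 3 lay above those of timepoint 2.

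TAPBP in 2D held 105, 130.5 and 106 CPM at timepoint 1 and 82.4, 112 and 72.0 CPM at timepoint 2, with overlap between them. IRF3 in 2D held 171, 136 and 189 CPM, 192, 190.4 and 191 CPM and 191 and 213 CPM (fitted libraries) at timepoints 1 to 3, with 183 CPM in the library labelled replicate 1, and in 3D 196, 211 and 232 CPM at timepoint 3. IFI35 in 2D held 7.57, 6.29 and 10.0 CPM, 8.01, 11.3 and 9.09 CPM and 9.81 and 10.6 CPM (fitted libraries), with 6.50 CPM in the library labelled replicate 1, and in 3D 8.52, 9.80 and 8.20 CPM at timepoint 3. Both genes thus had wide 2D ranges at timepoint 1. In the same library OASL measured 1.12 CPM.

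Counted against the background of edgeR calls, the members' shares with time were near the background in 2D. At timepoint 2 in 2D 1 of 36 was lower (3.22% of genes), and at timepoint 3 1 was lower (2.36%) and 1 higher (2.5%). In 3D at timepoint 2, 4 were lower (7.76% of genes) and 2 higher (7.31%), and at timepoint 3, 8 were lower (6.95%) and 0 higher. With the block, in 2D, 3 were lower (IFIT3, OASL and TAP1; 7.06% of genes) and 1 higher (IFI44; 6.59%) at timepoint 2. At timepoint 3 in 2D, 3 were lower (IFIT2, IFIT3 and OASL; 5.13%) and 2 higher (HLA-B and IRF1; 5.38%). In 3D with the block, 8 were lower (13.6%) and 4 higher (14.8%) at timepoint 2. At timepoint 3, 11 were lower (12.5%) and 2 higher (11.4%). The block added B2M and PSMB8 to the genes that rose in 3D at timepoint 2 (log2 fold changes 0.34 and 0.57, adjusted p = 0.0252 and 0.0131). Leaving out single libraries left between 2 and 8 calls in 3D at timepoint 2 and between 1 and 8 at timepoint 3. The fewest were found without 3D timepoint 2 replicate 1 or replicate 3 at timepoint 2, and without 3D timepoint 3 replicate 1 at timepoint 3. Of all genes, the same omissions called 1252 to 3606 at timepoint 2 and 1131 to 2749 at timepoint 3, against 2801 and 2049 in the full fit.

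**Figure D4:**
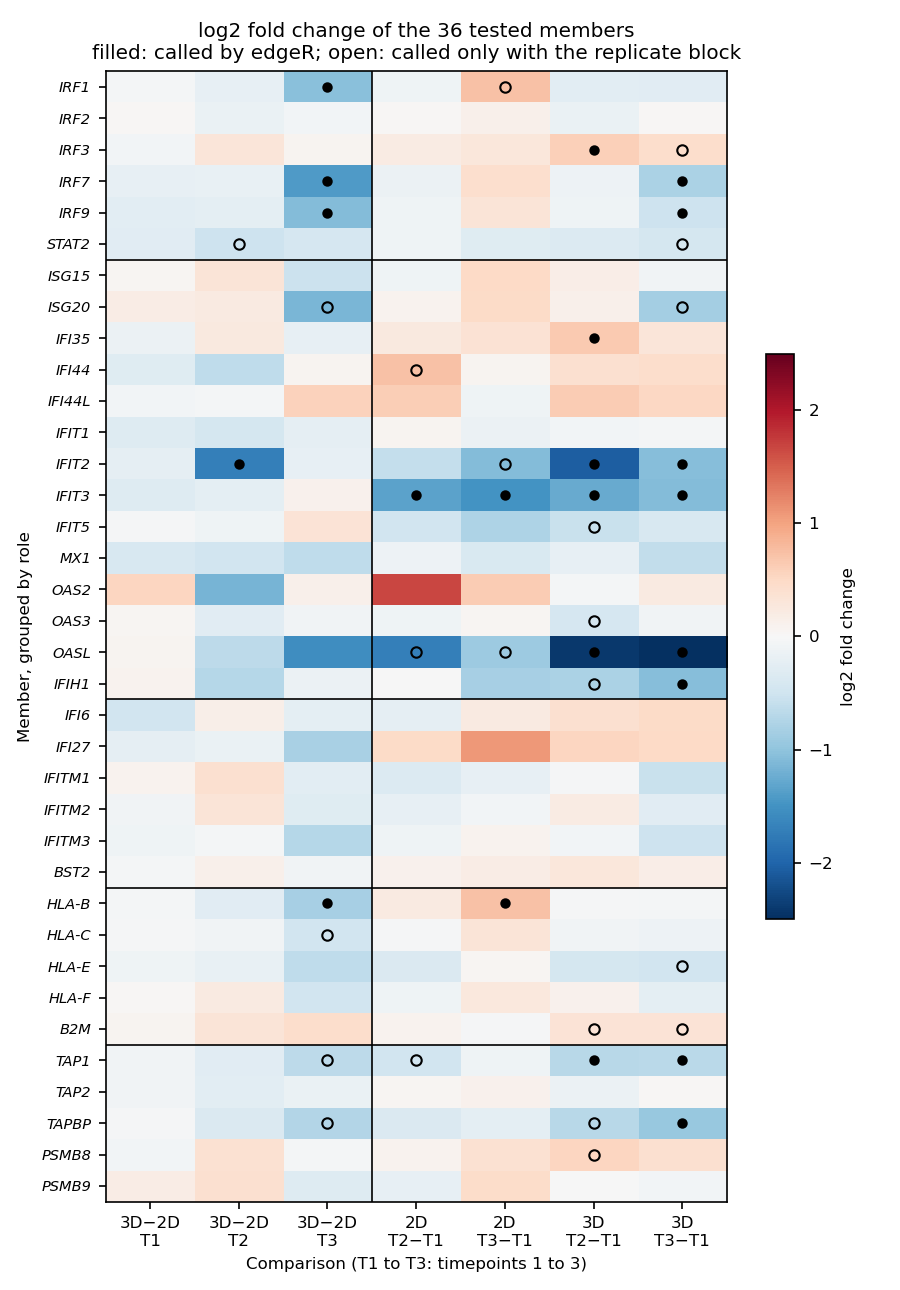
Log2 fold changes (colour) of the 36 tested members, in rows grouped by role, for 3D against 2D at each timepoint and for timepoints 2 and 3 against timepoint 1 in each culture; filled circles mark members called by edgeR's quasi-likelihood test and open circles those called only with the replicate block. The 4 filled circles of 3D against 2D at timepoint 3 fall on IRF1, IRF7, IRF9 and HLA-B, and IFIT3 is filled in all 4 time comparisons.

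Whether culture changed the course over time was tested by interaction terms. Without the block 0 members passed at timepoint 2 (0% of genes) or timepoint 3 (0.183%) by edgeR's quasi-likelihood test. At an unadjusted p under 0.05 the members numbered 1 at timepoint 2 and 7 at timepoint 3, DESeq2 called 0 and 2, and limma-voom 0 and 0. Over all 18592 genes 1624 and 1538 had an unadjusted p under 0.05, DESeq2 called 29 and 140, and limma-voom 0 and 25. With the block, IFIT2 passed at timepoint 2 (log2 difference -1.50 ± 0.33 (SE), adjusted p = 0.0459), against 0.532% of genes lower. HLA-B (-0.77 ± 0.16 (SE), adjusted p = 0.0289) and IRF9 (-0.85 ± 0.19 (SE), adjusted p = 0.0401) passed at timepoint 3, against 1.02%. With all 18 libraries and the block the values at timepoint 3 were -0.56 for HLA-B (adjusted p = 0.373) and -0.49 for IRF9 (adjusted p = 0.593), and 0 members passed. For IFIT2 at timepoint 2 the same fit gave -1.51 there (adjusted p = 0.0792).

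Of the 36 tested members, 12 were called in at least 1 comparison without the block, 9 only with it, and 15 in neither. Besides those named, the 9 include the synthetase OAS3 and the RNA-binding IFIT5, lower in 3D at timepoint 2 than at timepoint 1 (blocked log2 fold changes -0.45 and -0.57, adjusted p = 0.00949 and 0.0146). HLA-E, the ligand of the inhibitory receptor of natural killer cells, was lower in 3D at timepoint 3 than at timepoint 1 (blocked log2 fold change -0.49, adjusted p = 0.0393). The 15 were IRF2, ISG15, IFI44L, IFIT1, MX1, OAS2, IFI6, IFI27, IFITM1, IFITM2, IFITM3, BST2, HLA-F, TAP2 and PSMB9. ISG15, the ubiquitin-like modifier that serves as a common marker of interferon exposure, ran from 3.36 to 8.69 CPM over all 18 libraries. The GTPase MX1 and the RNA-binding IFIT1 stayed at 1.53 CPM or less in every library, and the largest counts of MX2 were 9 and 4. IFI27, a mitochondrial interferon-stimulated protein, showed the widest swing among the membrane and organelle genes, from a log2 fold change of -0.81 (3D against 2D at timepoint 3) to 1.09 (2D at timepoint 3 against timepoint 1), and neither passed. OAS2 ranged further, from -1.16 to 1.66, at levels of 0.0497 to 0.615 CPM. The viral-entry restriction genes IFITM1, IFITM2 and IFITM3 differed between replicate numbers, and at timepoint 1 IFITM3 stood at 292, 198 and 474 CPM in 2D and 261, 198 and 435 CPM in 3D, with replicate 3 the highest in both.

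Upstream, the interferon genes themselves were near the limit of detection. Of 21 interferon ligand genes, 19 had 0 counts in all 18 libraries, and the highest count was 3, for IFNK in a 3D library of timepoint 3. IFNE was the other ligand with counts, 1 or 2 in a library. None could be tested, and protein was not measured. Most type I interferon genes form a genomic cluster beside CDKN2A and CDKN2B, which had 0 counts in all 18 libraries, and MTAP, which had at most 6. The other listed genes beside that cluster, DMRTA1, KLHL9, FOCAD, HACD4, PTPLAD2 and MLLT3, are not reported here. Whether the locus is intact in these cells was not tested. Of 14 receptor, JAK and STAT genes, 1 was lower and 1 higher in 3D at timepoint 2, STAT3 (log2 fold change -0.56, adjusted p = 0.0460) and the interferon gamma receptor chain IFNGR2 (0.62, adjusted p = 0.0467). At timepoint 3, 1 was lower, STAT3 (-0.62, adjusted p = 0.0408). Of all 18592 genes, 0.785% were called lower at timepoint 2 and 1.26% at timepoint 3. In either direction 277 genes were called at timepoint 2. The type I receptor chain IFNAR2 fell with time in 2D (log2 fold changes -1.15 and -1.10, adjusted p = 0.00799 and 0.0281). At timepoint 3 its fitted 2D libraries held 9.01 and 9.54 CPM, whereas the library labelled replicate 1 held 16.6 CPM, close to the lowest 2D library of timepoint 1. Of 7 feedback inhibitors, 1 was lower in 3D at timepoint 3, SOCS3 (-2.16, adjusted p = 0.0319), beside 1.26% of all genes. SOCS3 held 2.7 and 0.991 CPM in the fitted 2D libraries of timepoint 3, 0.341 CPM in the library labelled replicate 1, and 0.307, 0.568 and 0.364 CPM in 3D, so that the size of its difference rests largely on 2D timepoint 3 replicate 2. With all 18 libraries no gene of any list was called for culture at timepoint 3, since 0% of genes were.

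Of the other interferon-stimulated genes, 43 of 46 listed were tested. The chemokine CXCL10 had 82 to 158 counts in each library of timepoint 1 and 1 to 5 in each later library, in both cultures. CXCL11 had 63 to 87 counts at timepoint 1 and 0 to 5 later. Both therefore separated timepoint 1 from the rest without overlap. The guanylate-binding protein gene GBP1 fell as well, with log2 fold changes against timepoint 1 of -2.71 and -2.91 in 2D and -2.63 and -2.73 in 3D (adjusted p = 1.26e-04, 3.55e-04, 8.16e-05 and 5.50e-05). Of the 43 genes, 8 and 7 were lower in 2D at timepoints 2 and 3, 13 and 11 in 3D, and 0 were higher in those comparisons. The shares of all genes called lower were 3.22% and 2.36% in 2D and 7.76% and 6.95% in 3D. Between cultures, 2 were lower in 3D at timepoint 2, APOL6 (-1.07, adjusted p = 0.0264) and TRIM22 (-0.59, adjusted p = 0.0469), and 2 at timepoint 3, TRIM22 (-0.67, adjusted p = 0.0400) and the ubiquitin ligase TRIM25 (-0.86, adjusted p = 0.0400). Over all genes 0.785% and 1.26% were lower there.

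Class I genes are also driven by NLRC5 and by NF-kB. NLRC5, the class I transactivator, was the 1 of 17 antigen-presentation partners lower in 3D at timepoint 2 (log2 fold change -0.90, adjusted p = 0.0456), beside 0.785% of all genes. At timepoint 3 0 of the 17 passed without the block by edgeR's quasi-likelihood test. NLRC5 was then at -0.88 (adjusted p = 0.0661, and 0.0140 with the block). Of 12 NF-kB factors and inhibitors, 2 were lower in 3D at timepoint 3, the subunit gene NFKB2 (-0.96, adjusted p = 0.0318) and TNFAIP3, the A20 inhibitor (-1.52, adjusted p = 0.0423), beside 1.26% of all genes. All 12 had a log2 fold change below 0 there, with a median of -0.50, whereas the median of all genes there lay just above 0. These values rest on the same 17 libraries as those of HLA-B. The constitutive proteasome subunits, 3 in number, had medians of 0.48 and 0.23 at timepoints 2 and 3, and 0 passed without the block.

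Some other genes of the pathway lists were lower at the later timepoints than at timepoint 1 by edgeR's quasi-likelihood test over 17 libraries. The counts that follow stand beside 3.22% and 2.36% of all genes called lower in 2D at timepoints 2 and 3, and 7.76% and 6.95% in 3D. Values in parentheses are log2 fold changes against timepoint 1. Of 11 sensors and adaptors tested, 2 were lower in 2D at each later timepoint and 3 in 3D at each. The adaptor TICAM1 (TRIF) fell in 3D at timepoints 2 and 3 (-1.33 and -1.44, adjusted p = 6.50e-04 and 3.23e-04), and in 2D at timepoint 2 (-1.19, adjusted p = 0.00269). The kinase IKBKE fell in 3D at both (-0.53 and -0.76, adjusted p = 0.0444 and 0.00786) and in 2D at both (-0.85 and -0.70, adjusted p = 0.00572 and 0.0441). DDX58 (RIG-I), a cytosolic RNA sensor, fell in 3D at both (-1.15 and -1.08, adjusted p = 0.00628 and 0.00970) and in 2D at timepoint 3 (-1.28, adjusted p = 0.0167). Among other genes of the IRF family list, IRF2BP2 fell in 3D at both (-0.89 and -0.94, adjusted p = 0.0132 and 0.0110) and IRF5 fell in 3D at timepoint 3 (-0.88, adjusted p = 0.0250).

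Of the 12 NF-kB genes, 5 and 1 were lower in 2D at timepoints 2 and 3 (3.22% and 2.36% of all genes), and 7 and 5 in 3D (7.76% and 6.95%). TNFAIP2 fell in 2D at both (-1.33 and -1.09, adjusted p = 0.00400 and 0.0344) and in 3D at both (-2.17 and -2.39, adjusted p = 5.33e-05 and 1.96e-05). NFKB2 fell in 2D at timepoint 2 (-1.12, adjusted p = 0.00220) and in 3D at both (-1.12 and -1.38, adjusted p = 0.00121 and 2.00e-04). NFKBIE and BCL3, of the I kappa B family, fell in 2D at timepoint 2 too, by log2 fold changes of -0.94 and -0.87 (adjusted p = 0.00515 and 0.00770). In 3D NFKBIE fell at both (-0.87 and -1.02, adjusted p = 0.00513 and 0.00166), as did BCL3 (-1.22 and -1.31, adjusted p = 4.19e-04 and 2.01e-04). Of the 14 receptor, JAK and STAT genes, 2 and 3 were lower in 3D (the same shares of all genes): STAT5A at both (-0.93 and -0.98, adjusted p = 0.0188 and 0.0161), JAK1 at both (-0.45 and -0.61, adjusted p = 0.0492 and 0.0146) and IFNLR1 at timepoint 3 (-1.45, adjusted p = 0.0281). Of the 17 antigen-presentation partners, 2 and 0 were lower in 2D and 4 and 3 in 3D. RFX5, a subunit of the factor that binds class I and class II promoters, fell in 2D at timepoint 2 (-0.64, adjusted p = 0.0378) and in 3D at both (-0.84 and -0.88, adjusted p = 0.00507 and 0.00363). SPPL3 fell likewise in 2D (-0.51, adjusted p = 0.0440) and 3D (-0.97 and -0.77, adjusted p = 4.06e-04 and 0.00221), NLRC5 in 3D at both (-0.90 and -0.71, adjusted p = 0.00954 and 0.0368), and the chaperone CANX in 3D at timepoint 2 (-0.78, adjusted p = 0.0330). Among feedback inhibitors, SOCS1 fell in 2D at timepoint 2 (-2.0, adjusted p = 0.0259) and in 3D at timepoint 3 (-1.91, adjusted p = 0.0229), and the phosphatase PTPN6 rose at timepoint 2 in 2D (0.79, adjusted p = 0.0225) and in 3D (0.80, adjusted p = 0.0116). SP110 fell in 2D at timepoint 2 (-0.82, adjusted p = 0.00243). GBP2 fell in 2D at timepoint 3 (-1.40, adjusted p = 0.00273) and in 3D at both (-1.45 and -1.91, adjusted p = 2.69e-04 and 2.32e-05).

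Several members share their locus with other annotated genes, and whether counting used strand is not given here. IRF1 (mean 22.4 CPM) overlaps the opposite-strand gene AC116366.3 (mean 70.7 CPM), which had a log2 fold change of 0.92 at timepoint 3 (adjusted p = 0.239), opposite in sign to IRF1. IRF9 (mean 10.9 CPM) overlaps AL136295.5 on its own strand (mean 8.64 CPM), with -0.36 (adjusted p = 0.368). HLA-B overlaps the opposite-strand AL671883.2 (mean 2.38 CPM), which was lower in 3D as well (-1.13, adjusted p = 0.0395). IFIT1, IFIT2 and IFIT3 lie within the opposite-strand span of LIPA (mean 38.9 CPM), which had -0.66 at timepoint 2 (adjusted p = 0.292). The LIPA means at timepoints 1 to 3 were 50.7, 41.6 and 29.1 CPM in fitted 2D libraries and 50.1, 26.3 and 32.2 CPM in 3D. They were lower at both later timepoints, as for IFIT2 and IFIT3. At timepoint 1 LIPA varied from 29.3 to 66.3 CPM in 2D and from 26.5 to 72.2 CPM in 3D. Its part in the falls of IFIT2 and IFIT3 was not tested. TAP1 and PSMB8 overlap PSMB8-AS1, which had -0.66 at timepoint 3 (adjusted p = 0.105; with the block -0.73, adjusted p = 0.0162), the sign of TAP1. The PSMB8-AS1 means in 3D were 15.8, 8.78 and 9.44 CPM at timepoints 1 to 3, lower later as for TAP1. In fitted 2D libraries they were 14.9, 11.1 and 15.0 CPM. IRF3 overlaps BCL2L12, whose mean in 3D was 50.7 CPM at timepoint 1 and 65.1 CPM at timepoint 2, the direction of IRF3. BCL2L12 was higher in 3D than in 2D at timepoint 2 with the block (0.74, adjusted p = 8.31e-04; 0.0605 without it). Reads from such pairs cannot be told apart without strand, and short reads from the class I heavy chains, the IFIT genes or the IFITM genes may be split among near-identical relatives. HLA alleles that differ from the reference may also lose reads.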

How the data were processed

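RNA was measured by poly-A, single-end sequencing in 18 libraries, 3 in each of 6 groups. Per the submitters' processing notes, STAR 2.7.1a, HOMER, edgeR and limma were used with the hg38 build; the part each tool played is not stated. The main values are the authors' deposited raw counts per gene, which are not normalised. Per the file headers, the authors also deposited log2 CPM for 17 libraries with a total for each, and limma tables with log2 fold changes, p-values and a score (moderated statistic and log odds). Of these, only the header totals and the limma tables' log2 fold changes and adjusted p-values were used, for comparison.

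Counts were tested with edgeR 4.0.16 in R 4.3.3 (TMM scaling, filterByExpr, quasi-likelihood F test), in 1 fit of 17 libraries and 18592 genes. Benjamini-Hochberg adjustment ran over all genes, with a threshold of 0.05. All 9 comparisons (culture at each timepoint, time within each culture, and their interaction) are contrasts of that fit, so several share libraries. The script was tested on simulated data. Depth per library is discussed with the levels, and no counting intervals are given, since summed counts exceeded the header totals.

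Same-numbered libraries share a date in the labels. Their deviations from the group means at one timepoint correlated (mean r 0.582, lowest 0.416, over 8 pairs). Same-numbered libraries of different timepoints correlated less (mean r 0.333, lowest -0.0900, over 32 pairs). Differently numbered libraries of one timepoint had a mean of -0.285. Deviations sum to 0 within a group, so that negative mean follows from the measure and is not separate evidence of pairing. The common dispersion was 0.0686 without the block and 0.0363 with it. The other alternatives were RLE and upper-quartile scaling, no filter, a mean count of at least 50, DESeq2 1.42.0, limma-voom (limma 3.58.1), all 18 libraries, the compared groups alone, and each library left out in turn. The fit of all 18 libraries with the block was added after the data were seen.

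The members and gene lists were chosen with earlier results of these data known. Every member is accounted for, and members called without the block in any comparison are given with values in each library. Of each pathway list the called genes were to be named, up to 4 per comparison by smallest p; a few are not reported here. Promoters were printed for members called for culture at timepoint 2 or 3 that hold a motif, with IFIT3 and TAP1 added.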

Additional observations from a re-analysis of the deposited data

Results flagged for a closer look

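Interaction terms with the replicate block singled out 3 members whose change with time differed between 3D and 2D. For IFIT2 the change from timepoint 1 to timepoint 2 was lower in 3D than in 2D by a log2 difference of -1.50 (adjusted p = 0.0459, edgeR's quasi-likelihood test with Benjamini-Hochberg adjustment). For HLA-B the change from timepoint 1 to timepoint 3 was lower in 3D by a log2 difference of -0.77 (adjusted p = 0.0289). For IRF9 that difference was -0.85 (adjusted p = 0.0401). None of the 3 passed without the block, nor with the block when the library labelled 2D timepoint 3 replicate 1 was added (adjusted p = 0.0792 for IFIT2, 0.373 for HLA-B and 0.593 for IRF9).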

How the results depend on the processing

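The count of members called was the most sensitive value. With the replicate block, which pairs libraries of one date, it was 2 at timepoint 2 (1 without it), 8 at timepoint 3 (4 without it), 4 and 5 in 2D against timepoint 1 at timepoints 2 and 3 (1 and 2 without it), 12 and 13 in 3D (6 and 8 without it), and 1 and 2 for the interactions (0 without it). The block moved the number of all genes called as well. For culture at timepoints 2 and 3 it was 2949 and 1813 (277 and 278 without it). In 2D it was 2539 and 1954 (1092 and 903), and in 3D 5279 and 4447 (2801 and 2049). For the interactions it was 243 and 290 (0 and 34). The block with all 18 libraries gave 2 members at timepoint 2, 4 and 5 in 2D, and 12 in 3D at timepoint 2. All genes called there were 2839, 2434, 2402 and 5134. All 18 libraries without the block gave 0 at timepoint 3, where 0 of all genes were called. Without a filter the count was 8 at timepoint 3, 3 in 2D at timepoint 2 and 2 for the interaction at timepoint 3. All genes called there were 1625, 1622 and 479, against 278, 1092 and 34 with the filter. DESeq2 gave 7 at timepoint 3, 2 and 4 in 2D, and 2 for that interaction. It called 1016, 1771, 1587 and 140 of all genes there, against 278, 1092, 903 and 34 by edgeR. Fitting only the compared groups gave 1 at timepoint 3, 1 in 2D at timepoint 3, and 3 and 5 in 3D. All genes called there were 200, 537, 1132 and 1331, against 278, 903, 2801 and 2049 in the fit of 17 libraries. Leaving out single libraries gave 0 to 1 at timepoint 2, 0 to 4 at timepoint 3, 1 in 2D at timepoint 2, 0 to 3 in 2D at timepoint 3, and 2 to 8 and 1 to 8 in 3D. It gave 0 at timepoint 1 and for both interactions. Of all genes, the omissions called 0 to 216 at timepoint 2 (277 in the full fit) and 618 to 818 in 2D at timepoint 2 (1092). Omitting a 3D library at timepoint 3 left 72 to 315 between cultures (278). Omitting a 2D library of timepoint 1 left 532 to 858 in 2D at timepoint 3 (903). Omitting a fitted 2D library of timepoint 3 also lowered the number of all genes called in both comparisons. The lost calls were thus not confined to the members. In 3D the omissions called 1252 to 3606 at timepoint 2 (2801) and 1131 to 2749 at timepoint 3 (2049). The cause of these shifts was not tested, apart from the fewer libraries of the last fits. Gene-level results numbered 47, each called in the fit without the block or in that with it. Under the alternatives 613 of their values stayed on their side of the threshold, 62 newly passed and 80 no longer did. Results called only with the block could not be lost, and they newly passed there by that choice. The 613 include values that passed in neither fit, so these counts do not measure how stable the calls were. Where an omission left 2D timepoint 3 with 1 library, that library was assumed to vary like the other groups. MX2 was too low to be tested at all.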
